A study of Mus musculus with 6 samples.

Results

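The Gadd45 genes examined here are Gadd45a, Gadd45b and Gadd45g, 3 paralogues that cells switch on under stress, together with Gadd45gip1, named for a protein that binds Gadd45 proteins. They were selected on an earlier result of the same libraries, in which Gadd45a was far higher in IFNγR1KO than in scrambled control cells, and the rest of the family was then taken by name. The levels and fold changes of the 4 genes are therefore given as a description, with no p-value. They are 4 of the 55335 genes in the deposited tables, and all 4 passed the filter on low counts that kept 13642 genes. RNA came from B16 (B16-BL6) mouse melanoma cells grown in culture. The 3 scrambled control cultures, labelled WT, carried a lentiviral CRISPR-Cas9 construct with a guide against GFP, and the 3 IFNγR1KO cultures carried the same type of construct with guides against exon 1 of Ifngr1, the ligand-binding chain of the interferon-γ receptor. The knockout cells were grown as single clones, the labels name no added interferon, and the cultures were seeded in triplicate. Nothing in the labels says whether the 3 IFNγR1KO cultures share a clone, so a p-value here measures the spread between these cultures, which may be technical, and an effect of the clone cannot be told apart from one of the knockout.

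Gadd45 proteins are small acidic proteins with no enzyme activity of their own, which act by binding others. They bind and activate the kinase Map3k4 at the top of the p38 and JNK cascades, they bind the Cdk1 and cyclin B1 complex that drives entry into mitosis, they bind Pcna and p21 (Cdkn1a), and they have been linked to repair and to DNA demethylation. Gadd45a is a textbook target of p53 and also answers to ATF4 when protein synthesis or nutrient supply is disturbed, Gadd45b is known as an early response gene of NF-κB and TGF-β signaling, and Gadd45g is known as a growth-arrest gene that many tumors lack. Gadd45gip1, also known as Crif1, is no paralogue of the others: its protein is part of the large subunit of the mitochondrial ribosome.

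The promoters of the 3 paralogues are shown because these genes share an origin and yet differed in their RNA, as given further on. The windows run from 250 bases before to 50 bases after the start site and were read from RefSeq on GRCm38.p6. Capitals mark matches, on either strand, to the octamer ATGCAAAT (ATTTGCAT on the other strand), the CCAAT box CCAAT, the E-box CACGTG and the C/EBP-ATF composite core TGATGCAA (TTGCATCA on the other strand).
Gadd45a promoter: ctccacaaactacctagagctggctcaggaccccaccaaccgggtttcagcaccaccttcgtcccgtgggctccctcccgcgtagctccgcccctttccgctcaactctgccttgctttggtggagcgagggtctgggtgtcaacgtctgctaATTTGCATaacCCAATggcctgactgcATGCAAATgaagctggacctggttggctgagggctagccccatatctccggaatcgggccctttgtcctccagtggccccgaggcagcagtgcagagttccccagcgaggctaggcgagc
Gadd45b promoter: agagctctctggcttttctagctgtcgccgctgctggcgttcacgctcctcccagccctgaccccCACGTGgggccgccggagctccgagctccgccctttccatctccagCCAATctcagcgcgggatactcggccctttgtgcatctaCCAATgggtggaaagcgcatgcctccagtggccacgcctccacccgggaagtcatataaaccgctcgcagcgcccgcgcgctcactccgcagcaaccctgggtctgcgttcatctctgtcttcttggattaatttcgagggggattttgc
Gadd45g promoter: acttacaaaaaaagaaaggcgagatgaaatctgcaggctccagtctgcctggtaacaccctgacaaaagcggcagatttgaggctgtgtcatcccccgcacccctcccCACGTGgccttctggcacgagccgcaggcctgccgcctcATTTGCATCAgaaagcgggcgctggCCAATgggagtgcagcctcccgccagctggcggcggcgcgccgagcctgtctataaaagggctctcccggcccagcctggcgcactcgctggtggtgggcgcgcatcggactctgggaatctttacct
The Gadd45a window is the minus strand of chr6:67037358-67037657, the Gadd45b window is the plus strand of chr10:80929841-80930140, and the Gadd45g window is the plus strand of chr13:51846425-51846724.

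Gadd45a held an octamer in each orientation, from -97 to -90 and from -70 to -63 relative to the start site, with a CCAAT box between them from -86 to -82. Gadd45g held 1 octamer, from -103 to -96, and its last bases are also the first bases of a C/EBP-ATF composite core from -101 to -94. It also held a CCAAT box from -78 to -74 and an E-box from -142 to -137. Gadd45b held no octamer and no composite core, but CCAAT boxes from -139 to -135 and from -100 to -96 and an E-box from -185 to -180. Among 32851 windows of 27025 genes, 1.74% held the octamer, 0.895% the composite core, 37.4% the CCAAT box and 7.15% the E-box. A GC box, GGGCGG or CCGCCC, was present at -163 to -158 in Gadd45a and at -158 to -153 in Gadd45b, as in 35.7% of windows, and is not capitalized. None of the 3 windows held the cAMP response element TGACGTCA, the FoxO core GTAAACA or the STAT site TTCNNNGAA, which 1.79%, 3.65% and 8.3% of windows held. All 3 windows were rich in G and C, with 61% in Gadd45a, 62% in Gadd45b and 62.3% in Gadd45g against a median window of 52.7%. A match to such short letters is a description of the window and not evidence that a factor binds there.

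The total of counts on genes ran from 9402640 to 10579788 in scrambled control libraries and from 6698956 to 7409479 in IFNγR1KO libraries, so that 1 count was worth 0.0966 to 0.109 CPM in the former and 0.135 to 0.142 CPM in the latter. CPM are counts relative to the total of their library, after TMM scaling. The summed level of 8 melanocyte markers was 31767 to 34700 CPM in scrambled control and 27912 to 32838 CPM in IFNγR1KO libraries, whereas 4 of 5 leukocyte, 3 of 3 endothelial, 2 of 3 keratinocyte and 2 of 4 fibroblast markers stayed at 3 counts or fewer in every library. The summed level of the 4 fibroblast markers was 4.38 to 5.97 CPM in scrambled control and 6.25 to 8.72 CPM in IFNγR1KO libraries, with Col3a1 and Dcn at 3 counts or fewer. Within that sum Col1a1 rose from 1.33 ± 0.357 to 5.20 ± 1.39 CPM (edgeR adjusted p = 0.0017), while Pdgfra was at 3.60 ± 0.481 and 2.10 ± 0.327 CPM (adjusted p = 0.0866; SD, n = 3 each). Among the melanocyte markers Kit fell from 44.9 ± 4.87 to 11.5 ± 2.86 CPM (SD, n = 3 each, edgeR adjusted p = 4.8e-05), and the other 7 did not pass the test. The part of these markers in the results was not tested. Ifngr1 itself had means of 15.9 ± 1.35 and 11.5 ± 0.0901 CPM (SD, n = 3 each; log2 fold change -0.47, standard error 0.16, edgeR adjusted p = 0.0729), and counts over the whole gene do not test a deletion within exon 1. The median log2 fold change over all genes tested was -0.00147. In bulk RNA, fewer cells that express a gene and less RNA of it per cell cannot be told apart.

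Gadd45a (ENSMUSG00000036390.8) lies on the minus strand at chr6:67035096-67037457 of GRCm38, with 1764 exonic bases, of which 495 are coding with the stop codon left out, and 7 annotated transcripts. Scrambled control 1, 2 and 3 gave 105, 131 and 117 counts, and IFNγR1KO 10, 11 and 12 gave 611, 700 and 592. Every IFNγR1KO library stood far above every scrambled control library, and the libraries of each group lay close together. On the scale of CPM the levels were 11.4, 13.0 and 11.3 in scrambled control and 86.8, 94.8 and 83.2 in IFNγR1KO libraries. The means were 11.9 ± 0.972 CPM and 88.3 ± 5.94 CPM (SD, n = 3 each), which is 7.40-fold higher in IFNγR1KO cells, or 2.89 as a log2 fold change (standard error 0.14). The IFNγR1KO libraries were shallower, and with equal totals made by thinning the log2 fold change was 2.86. This was the 33rd highest log2 fold change of the 13642 genes tested. Ranked by level per exonic kilobase among the 13636 tested genes with a known length, Gadd45a stood at place 6506 from the top in scrambled control cells and at place 1137 in IFNγR1KO cells.

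Gadd45g (ENSMUSG00000021453.2) lies on the plus strand at chr13:51846678-51848468, with 1173 exonic and 477 coding bases and 2 annotated transcripts. Its counts were 72, 88 and 59 in scrambled control and 13, 34 and 27 in IFNγR1KO libraries, which are 7.82, 8.76 and 5.70 CPM and 1.85, 4.61 and 3.80 CPM. The groups did not overlap, but the gap between their nearest libraries was small: scrambled control 3 had a 95% Poisson interval of 4.34 to 7.35 CPM and IFNγR1KO 11 one of 3.19 to 6.44 CPM, and such intervals cover counting error only. The mean level was 7.42 ± 1.56 CPM in the former and 3.42 ± 1.42 CPM in the latter (SD, n = 3 each), 2.16-fold lower in IFNγR1KO cells. The log2 fold change of -1.11 (standard error 0.30) ranged from -1.37 without IFNγR1KO 11 to -0.82 without IFNγR1KO 10. Over the whole table this was the 219th lowest log2 fold change, and by level per exonic kilobase the gene stood at place 6747 in scrambled control and at place 9656 in IFNγR1KO cells. Its call, given further on, was lost without scrambled control 1, scrambled control 2 or IFNγR1KO 10 and when the libraries were thinned, where its log2 fold change was -1.07, -0.97, -0.82 and -1.06.

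Gadd45b (ENSMUSG00000015312.9) lies on the plus strand at chr10:80930073-80932204, with 1589 exonic and 480 coding bases and 3 annotated transcripts. It was read thinly, with 30, 39 and 39 counts in scrambled control and 24, 27 and 10 in IFNγR1KO libraries. The corresponding levels were 3.26, 3.88 and 3.77 CPM and 3.41, 3.66 and 1.41 CPM. The IFNγR1KO libraries 10 and 11 lay within the range of the scrambled control libraries, and only IFNγR1KO 12, whose 95% Poisson interval was 0.674 to 2.59 CPM, stood below it. The mean was 3.64 ± 0.333 CPM against 2.82 ± 1.23 CPM (SD, n = 3 each), and the log2 fold change was -0.36 (standard error 0.33). Without IFNγR1KO 12 the log2 fold change was -0.05, so the lower mean rests on that library.

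Gadd45gip1 (ENSMUSG00000033751.5) lies on the plus strand at chr8:84831522-84835482, with 2494 exonic and 666 coding bases and 1 annotated transcript. It was read deeply in every library, with 981, 1148 and 881 counts in scrambled control and 774, 855 and 717 in IFNγR1KO libraries. On the scale of CPM these are 106, 114 and 85.1 in scrambled control and 110.0, 116 and 101 in IFNγR1KO libraries. The groups overlapped, with scrambled control 3 the lowest of the 6 libraries, and the means were 102 ± 15.1 CPM and 109 ± 7.58 CPM (SD, n = 3 each). The log2 fold change was 0.09 (standard error 0.14), and it was -0.02 without scrambled control 3.

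**Figure D1:**
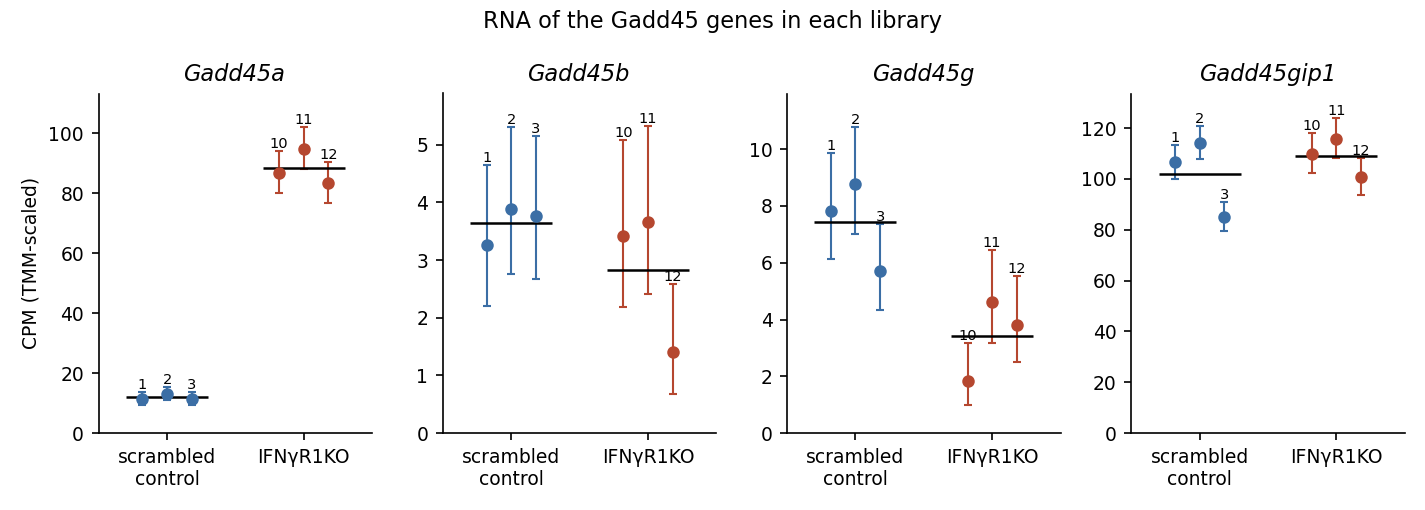
Level of each Gadd45 gene in CPM (vertical axes, linear, each from 0) in the 3 scrambled control libraries (blue, numbered 1 to 3) and the 3 IFNγR1KO libraries (red, numbered 10 to 12). Points are libraries, whiskers are 95% Poisson intervals of the counts and black lines are group means; Gadd45a lies at 11.3 to 13.0 CPM in scrambled control and 83.2 to 94.8 CPM in IFNγR1KO libraries, Gadd45g lies lower in IFNγR1KO libraries, and the groups overlap for Gadd45b and Gadd45gip1.

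By the threshold used over all genes, an adjusted p under 0.05 in edgeR's quasi-likelihood test, 2 of the 4 members were called, Gadd45a as higher and Gadd45g as lower in IFNγR1KO cells. Over all 13642 genes tested, 15.3% were called, 7.73% as higher and 7.62% as lower. In CPM, scrambled control and IFNγR1KO libraries were fully apart for 2 of the 4 members and for 32.6% of all genes tested. Since the members were chosen with this contrast known, nothing is read from these counts. Gadd45a was called under each of 13 other ways of processing the counts or leaving out a library and Gadd45g under 9 of them. Gadd45b and Gadd45gip1 were called under 0 of them.

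**Figure D2:**
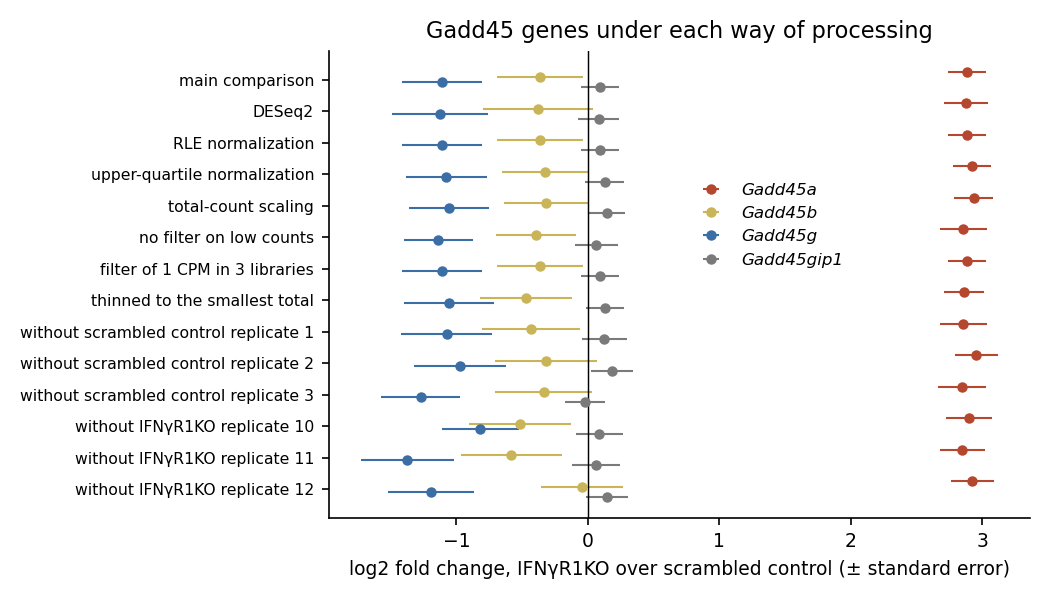
Log2 fold change of each Gadd45 gene, IFNγR1KO over scrambled control (horizontal axis), under the main comparison and 13 alternatives (rows); points are estimates and whiskers are standard errors. Gadd45a stays between 2.85 and 2.96, Gadd45g between -1.37 and -0.82 and Gadd45b between -0.58 and -0.05, and Gadd45gip1 stays near 0.

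Levels of different genes are compared only per length, as CPM per exonic kilobase. The length is that of all exons annotated in any transcript, 7 transcripts for Gadd45a, 3 for Gadd45b and 2 for Gadd45g. It can exceed the length of the mRNA in the cells, so levels per length depend on the annotation. In scrambled control cells Gadd45a, at 6.75 ± 0.551, and Gadd45g, at 6.33 ± 1.33, differed by less than their spread, and Gadd45b, at 2.29 ± 0.209, lay below both (SD, n = 3 each). In IFNγR1KO cells the level of Gadd45a was 50.05 ± 3.37 CPM per kilobase, and those of Gadd45g, at 2.91 ± 1.21, and Gadd45b, at 1.78 ± 0.777, overlapped within their spread. Gadd45gip1 stood at 40.9 ± 6.04 in scrambled control and 43.6 ± 3.04 CPM per kilobase in IFNγR1KO cells, so it was the member with the highest level in the former, whereas in the latter the mean of Gadd45a was above it.

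The 3 paralogues bind the same kind of partners, and their levels per kilobase can be summed. The sum was 15.2, 17.3 and 13.6 CPM per kilobase in scrambled control and 52.9, 60.0 and 51.3 in IFNγR1KO libraries, with means of 15.4 ± 1.83 and 54.7 ± 4.62 (SD, n = 3 each). The higher sum in IFNγR1KO libraries came from Gadd45a alone, by whose rise these genes were chosen, since Gadd45g was lower and the mean of Gadd45b was not higher. Gadd45a made up 42.6%, 42.7% and 47.0% of the sum in scrambled control libraries and 93.0%, 89.6% and 92.0% in IFNγR1KO libraries. Gadd45g went from 43.9%, 43.2% and 35.6% to 2.97%, 6.55% and 6.31%, and Gadd45b from 13.5%, 14.1% and 17.4% to 4.05%, 3.84% and 1.72%. The ratio of Gadd45a to Gadd45g within a library, which no scaling between libraries can alter, was 0.970, 0.990 and 1.32 in scrambled control and 31.3, 13.7 and 14.6 in IFNγR1KO libraries. Per annotated exonic length, scrambled control cells therefore held about as much Gadd45g as Gadd45a RNA, and IFNγR1KO cells held mostly Gadd45a.

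**Figure D3:**
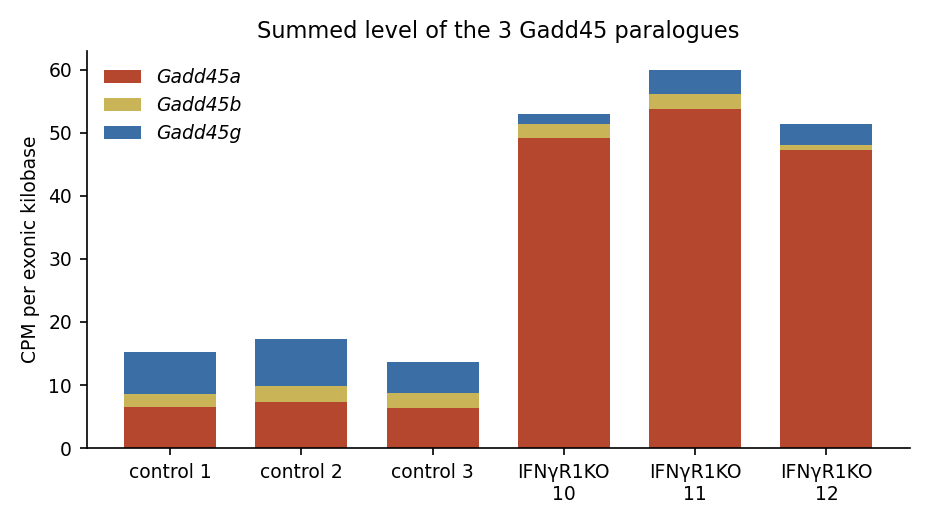
Summed level of Gadd45a (red), Gadd45b (yellow) and Gadd45g (blue) in CPM per exonic kilobase (vertical axis, from 0) in each of the 6 libraries (bars). The bars reach 13.6 to 17.3 in scrambled control and 51.3 to 60.0 in IFNγR1KO libraries, and the Gadd45a segment fills 89.6% to 93.0% of each IFNγR1KO bar.

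The paralogues share no long run of identical sequence by which their reads could be exchanged. Aligned coding sequences were 60.4% identical between Gadd45a and Gadd45b, 61.9% between Gadd45a and Gadd45g and 65.1% between Gadd45b and Gadd45g, and the longest stretch that transcripts of any of these pairs share without a mismatch was 17 bases. Their coding sequences hold 165, 160 and 159 codons, and that of Gadd45gip1 holds 222. Gadd45gip1 was 42.3% to 44.3% identical to the 3 paralogues.

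The same does not hold for the gene that lies across from Gadd45a. E230016M11Rik (ENSMUSG00000087231.7), a processed transcript on the plus strand at chr6:67036599-67080654, shares 337 exonic bases with Gadd45a, which are 19.1% of the exonic bases of Gadd45a, 238 of them coding, and 8.77% of its own. Its counts rose from 74, 72 and 75 in scrambled control to 457, 446 and 411 in IFNγR1KO libraries, so it moved in the same direction as Gadd45a. Its mean was 7.48 ± 0.480 CPM in scrambled control and 61.0 ± 3.61 CPM in IFNγR1KO cells (SD, n = 3 each; log2 fold change 3.03, standard error 0.15, edgeR adjusted p = 1.4e-07). The strand setting of the counting is not given in the sources used here, and without strand the reads of these genes cannot be told apart on the shared bases. In each library 46.9% to 47.7% of the reads lay on no feature. If strand was applied to reads made without it, reads of Gadd45a on the shared bases could count for E230016M11Rik. How many of its counts are such reads was not tested, so its rise is not shown to be separate from that of Gadd45a. Where a read could be given to either gene, htseq-count by default gives it to neither, and the ratio of the counts of E230016M11Rik to those of Gadd45a was 0.705, 0.550 and 0.641 in scrambled control and 0.748, 0.637 and 0.694 in IFNγR1KO libraries. If the counts of E230016M11Rik were spread evenly over its exons, 6.32 to 6.58 of them in scrambled control and 36.1 to 40.1 in IFNγR1KO libraries would lie on the shared bases, where Gadd45a, if even, would have 20.1 to 25.02 and 113 to 134 counts of its own. Counts are given per gene only, so an even spread was not tested, and more or all of them could lie on the shared bases. Fitted as the sum of both genes, the log2 fold change was 2.94 (standard error 0.14), against 2.89 for Gadd45a alone.

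**Figure D4:**
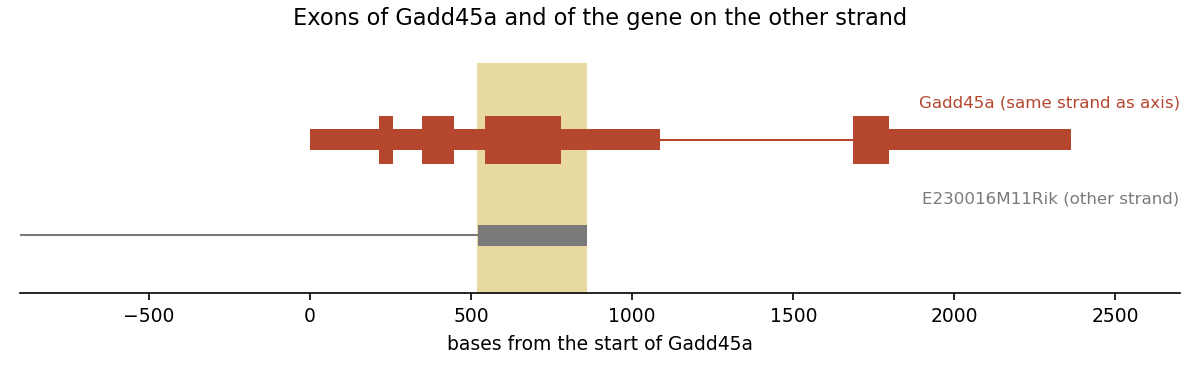
Exons (boxes, tall where coding) of Gadd45a (red) and of E230016M11Rik on the other strand (gray), in bases from the start of Gadd45a (horizontal axis); introns are thin lines. The yellow band marks the 337 exonic bases that both genes share, and E230016M11Rik goes on beyond the left edge.

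The nearest genes tested on each side of a member did not follow it as a group. Beside Gadd45a, the log2 fold change was -0.28 (standard error 0.14) for Gng12, -0.12 for 4930597O21Rik and -0.05 for Gm8566, so that only E230016M11Rik, which shares bases with it, was higher. Beside Gadd45g, the semaphorin gene Sema4d was lower (log2 fold change -0.83, standard error 0.24, edgeR adjusted p = 0.0366) and Nfil3, a transcription factor gene 1118741 bases away, was higher (1.83, standard error 0.15, edgeR adjusted p = 1.2e-05), whereas Secisbp2 (0.26) and Auh (-0.07) did not pass the test. Beside Gadd45b, the lamin gene Lmnb2 was lower (-0.52, standard error 0.16, edgeR adjusted p = 0.0459), and Timm13 (-0.16), Gng7 (0.21) and Gm16099 (1.14, standard error 0.39) did not pass. The call of Sema4d was lost without any 1 of scrambled control 1, 2 or 3 or IFNγR1KO 10 or 11 (log2 fold change -0.77 to -0.88), and so was that of Lmnb2 (-0.36 to -0.57). The call of Sema4d was also lost under DESeq2 (-0.84), total-count scaling (-0.78) and thinning (-0.72), and that of Lmnb2 under upper-quartile (-0.48) and total-count scaling (-0.46). Beside Gadd45gip1, Dand5 (0.34), Nfix (-0.13) and Calr (0.29) did not pass.

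The genes whose profile over the 6 libraries was most like that of each member were found by the root mean square difference of centered log2 CPM, over 11060 genes (11061 for Gadd45b) with a mean of at least 5 CPM over the 6 libraries. For Gadd45a they were Ppp1r15a (0.126), E230016M11Rik (0.137), Aldh1l2 (0.157), Gm15663 (0.189) and Ddit3 (0.199), against a median of 1.45 over the genes compared. Gm15663 passed that limit only through the IFNγR1KO libraries, with means of 0.980 CPM in scrambled control and 9.33 CPM in IFNγR1KO cells. Ppp1r15a is also called Gadd34 and Ddit3 is also called Gadd153 or CHOP, so these members of the older growth arrest and DNA damage series lay close to Gadd45a in their pattern. For Gadd45gip1 the closest were Atp5g2 (0.0305), which encodes a subunit of ATP synthase, Mrpl36 (0.0320), which encodes another protein of the large mitochondrial ribosomal subunit, and Ptges2 (0.0443), against a median of 0.275. For Gadd45g they were Fam111a (0.243), Gm10459 (0.279) and Maff (0.281), and for Gadd45b they were Mir670hg (0.175), Mtfmt (0.188) and Gm20457 (0.192), against medians of 0.722 and 0.510. These likenesses are descriptions over 6 libraries in 2 groups, and genes that differ between the groups by a like amount have like profiles by construction. Gadd45gip1 and its closest genes were each lowest of their group in scrambled control 3 and IFNγR1KO 12. The levels there were 85.1 and 101 CPM for Gadd45gip1, 240 and 277 CPM for Atp5g2 and 35.2 and 39.8 CPM for Mrpl36. Whether their likeness goes beyond such a difference between libraries was not tested.

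The GADD and DDIT names were given for induction by growth arrest or DNA damage, and the genes listed here are not related to Gadd45a by sequence. They are Ddit3, Ppp1r15a, Ddit4, its relative Ddit4l and Cgref1, which bears neither name. Of 5 listed, 4 were tested, 3 were higher and 1 was lower in IFNγR1KO cells, and their median log2 fold change was 2.39. The share of tested genes that passed was 100%, beside 15.3% of all genes. The list was written with earlier results of these data known, so nothing is read from that share. Ddit3, the CHOP transcription factor, rose from 61.4 ± 10.4 to 539 ± 72.4 CPM (SD, n = 3 each; log2 fold change 3.13, standard error 0.18, edgeR adjusted p = 4.6e-07). Ppp1r15a, a subunit that directs a phosphatase to eIF2α, rose from 15.3 ± 2.18 to 126 ± 3.69 CPM (3.04, standard error 0.15, edgeR adjusted p = 1.4e-07). Ddit4, an inhibitor of mTORC1 also called Redd1, rose from 42.9 ± 6.02 to 144 ± 6.89 CPM (1.75, standard error 0.14, edgeR adjusted p = 1.1e-05). Its relative Ddit4l went the other way, with 110 counts in all scrambled control libraries together and 8 in all IFNγR1KO libraries together, 10.0-fold lower after scaling with a 95% exact interval of 4.90 to 23.7 for counting error (edgeR adjusted p = 0.00024). Gadd45a is not counted among these 4, and Cgref1 had too few counts to be tested.

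Of 18 genes for binding partners of the Gadd45 proteins and for the p38 and JNK cascades, 0 were higher and 4 were lower, with a median log2 fold change of -0.04. These are 22.2% of the list, beside 15.3% of all genes called and 7.62% called as lower. Map3k4, the kinase that Gadd45 proteins activate, was 62.9 ± 14.96 CPM in scrambled control and 52.1 ± 10.9 CPM in IFNγR1KO cells (log2 fold change -0.27, standard error 0.19, edgeR adjusted p = 0.392). The p38 kinase Mapk14 was lower (-0.63, standard error 0.14, edgeR adjusted p = 0.0121), and so were Map2k3 (-0.74, adjusted p = 0.0021) and Map2k6 (-0.96, adjusted p = 0.0109), which phosphorylate it. The fourth was Pcna, the sliding clamp of DNA replication, which fell from 825 ± 119 to 500.0 ± 75.9 CPM (-0.72, standard error 0.17, edgeR adjusted p = 0.0136). Cdkn1a, which encodes p21, was at 143 ± 31.4 and 155 ± 19.6 CPM (0.12, standard error 0.17, edgeR adjusted p = 0.718). Without scrambled control 2 the list had 2 calls, those of Map2k6 (-0.89) and Pcna (-0.67) being lost, and the call of Mapk14 was lost without IFNγR1KO 10 (-0.57) or IFNγR1KO 11 (-0.61).

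The G2/M kinases and cyclins, among them the complex that Gadd45 proteins bind, were mostly lower: of 14 tested, 10 were lower and 0 higher, and the median log2 fold change was -0.74 against -0.00147 over all genes. The share that was lower was 71.4%, beside 7.62% of all genes. Like the other lists, this one was written with earlier results of these data known, so nothing is read from that share. Cdk1 fell from 295 ± 48.3 to 142 ± 18.7 CPM (-1.05, standard error 0.16, edgeR adjusted p = 0.0013), Plk1 changed by -1.18 (standard error 0.15, adjusted p = 0.00042) and Cdc25a by -1.11 (standard error 0.16, adjusted p = 0.00074). Wee1, Chek1, Ccna2, Ccnb1, Ccnb2, Aurka and Aurkb were the other 7 that passed. Among the repair and DNA demethylation partners, 1 of 16 tested genes was higher, the methylcytosine dioxygenase Tet3 (0.58, standard error 0.16, edgeR adjusted p = 0.0306), and 1 was lower, Pcna, which is also in the list of binding partners. The median of that list was -0.02, and 12.5% of it passed, under the 15.3% of all genes tested. The call of Tet3 was lost without scrambled control 1 (0.59), scrambled control 2 (0.46) or IFNγR1KO 11 (0.58), and without scrambled control 2 that list had 0 calls.

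Of 18 tested genes for reported transcriptional regulators of the Gadd45 genes, 2 were higher and 0 lower, with a median log2 fold change of -0.04. That share, 11.1%, lay under the 15.3% of all genes tested. Atf4, a stress-induced transcription factor, rose from 525 ± 76.3 to 1151 ± 92.5 CPM (1.13, standard error 0.16, edgeR adjusted p = 0.00075), and Cebpb, a transcription factor of the C/EBP family, rose from 23.8 ± 4.44 to 78.6 ± 13.0 CPM (1.72, standard error 0.18, edgeR adjusted p = 7e-05). Trp53, which encodes p53, was at 105 ± 15.5 and 110 ± 20.2 CPM (0.06, standard error 0.16, edgeR adjusted p = 0.857). Levels of RNA do not measure the activity of any of these factors.

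For Gadd45gip1 the genes listed were those of the mitochondrial ribosome and the mRNAs it translates. Of 50 tested genes of the large subunit, 0 were higher and 2 lower, Mrpl16 (-0.93, standard error 0.15, edgeR adjusted p = 0.0018) and Mrpl18 (-0.82, standard error 0.16, edgeR adjusted p = 0.0041), and the median log2 fold change was -0.04. Of 30 genes of the small subunit, Mrps18b was higher (0.64, standard error 0.15, edgeR adjusted p = 0.0141) and Mrps25 was lower (-0.45, standard error 0.14, edgeR adjusted p = 0.0451), with a median of -0.02. The call of Mrps18b was lost without scrambled control 2 (0.63) or IFNγR1KO 10 (0.49) and that of Mrps25 without any of 5 libraries, scrambled control 1 or 2 or IFNγR1KO 10, 11 or 12 (-0.48 to -0.36), and under upper-quartile (-0.41) and total-count scaling (-0.40), while the large subunit had 5 calls without scrambled control 3 and 6 without IFNγR1KO 12. These shares, 4% and 6.67%, lay under the 15.3% of all genes tested, and the log2 fold change of Gadd45gip1, 0.09, lay among those of its partners in the ribosome, which ran from -0.93 to 0.51 in the large subunit. Of 13 mitochondrially encoded mRNAs, 0 passed in edgeR, 0 at an unadjusted p under 0.05 and 0 in DESeq2. Their log2 fold changes were negative for 11 of the 13, with a median of -0.16. Scrambled control 1 was the highest scrambled control library for all of them but mt-Nd3 and mt-Co3. For mt-Co1 the levels were 3529, 1584 and 1815 CPM in scrambled control and 2409, 2609 and 1640 CPM in IFNγR1KO libraries. How far the negative signs rest on scrambled control 1 was not tested.

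**Figure D5:**
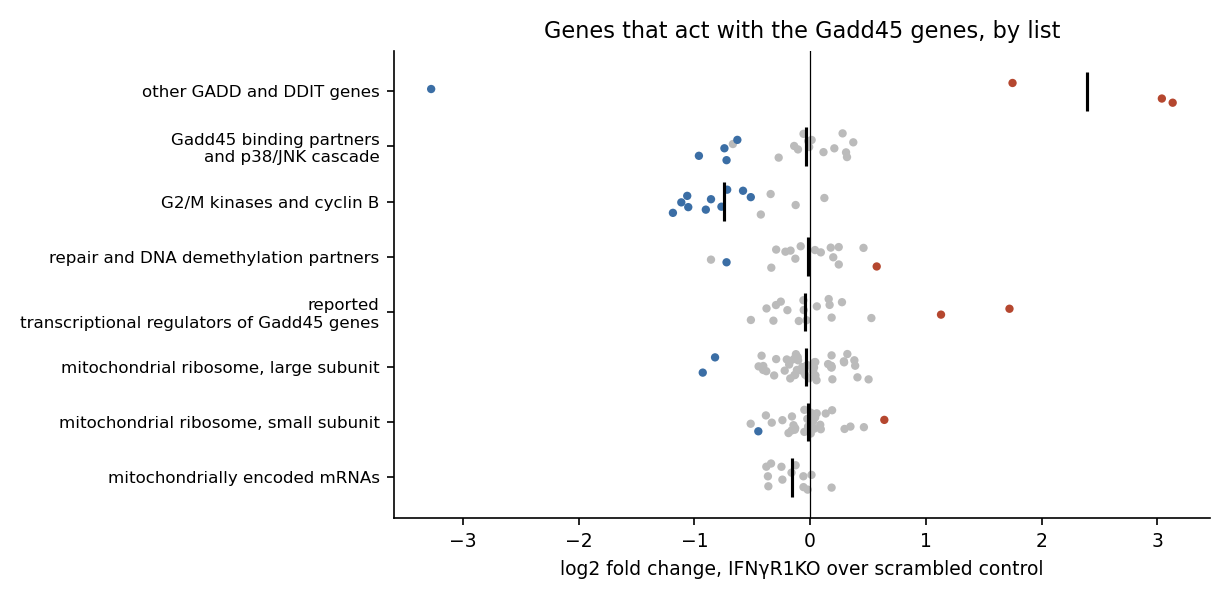
Log2 fold change, IFNγR1KO over scrambled control (horizontal axis), of each tested gene (point) in the lists of genes that act with the Gadd45 genes (rows); vertical position within a row is random, red and blue points passed the test as higher and lower, gray points did not, and black bars are medians. The bar of the G2/M list stands at -0.74, that of the other GADD and DDIT genes at 2.39, and the remaining bars lie between -0.16 and -0.02.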

How the data were processed

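RNA of 6 cultures was sequenced as paired-end reads after poly(A) selection. Alignment to GRCm38 was done by the authors with STAR 2.7.5a, and they deposited raw counts per gene made with HTSeq 0.11.2, one table per library, with no normalization, and the submitters' processing notes also name DESeq2 1.34.0. Which annotation was counted, and whether strand was used, is not given in the sources used here. Symbols and exons came from GENCODE M21, which holds 55154 of the 55335 identifiers. Rows that name no gene (reads with no feature, ambiguous or not unique) were left out of the totals.

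Counts were fitted in edgeR 4.0.16 (R 4.3.3): filterByExpr (minimum count 10, minimum total 15), TMM scaling and the quasi-likelihood test of IFNγR1KO against scrambled control over all 6 libraries, with Benjamini-Hochberg adjustment over 13642 genes. Every adjusted p is from this fit. The scripts were tested on simulated data. DESeq2 1.42.0, other normalizations and filters, thinning and leaving out each library were alternatives. Depth sets the precision: 95% Poisson intervals are exact and cover counting error only.

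The members, gene lists and motifs were chosen with earlier results of these data known. Named genes were Ifngr1, overlapping genes, the nearest 2 tested genes on each side, for each list the 3 genes of lowest adjusted p, under 0.05, higher and lower, 5 preset genes (Trp53, Atf4, Map3k4, Cdk1, Cdkn1a) and the closest profiles (5 for Gadd45a, 3 for each other member). Besides these, mt-Co1, mt-Co3 and mt-Nd3 were named to describe single libraries. Promoter windows came from RefSeq, which gave one for 3 of the 4 members. Ddit4l was at or under 3 counts in each IFNγR1KO library, so a ratio of summed counts is given for it. Of the genes that these criteria pick, 1 is not reported here.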

Additional observations from a re-analysis of the deposited data

How the results depend on the processing

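Gadd45a and the 4 other GADD and DDIT genes kept their direction and call under all 13 alternatives. The number of members called fell from 2 to 1 when every library was thinned to 6698956 counts and ranged from 1 to 2 when a library was left out. Gadd45g lost its call when thinned and without scrambled control 1, scrambled control 2 or IFNγR1KO 10, while its sign did not change. Gadd45gip1 was not called under any alternative and turned to -0.02 without scrambled control 3. Leaving out a library gave 535 to 1372 genes higher, against 1054, and 457 to 1452 lower, against 1039. It gave 2 to 4 calls among binding partners and the p38 and JNK cascades, 0 to 3 among repair and demethylation partners, 2 to 6 in the large and 0 to 3 in the small mitochondrial ribosomal subunit. Calls without scrambled control 2 were 535 higher and 552 lower, without IFNγR1KO 10 they were 570 and 525, and without IFNγR1KO 11 they were 571 and 457. The small subunit had 1 call under upper-quartile and 1 under total-count scaling, and the regulators had 4 with no filter on low counts. Without IFNγR1KO 12 there were more calls, 1372 higher and 1452 lower, so calls did not simply fall with fewer samples, and the cause was not tested. Of 49 named genes outside the members, 27 were called, 10 of these lost the call in at least 1 alternative and 0 changed sign. The fit of the sum of Gadd45a and E230016M11Rik, 2.94, was chosen after seeing the data. No paired analysis was run because the groups share no replicate number in the labels (1 to 3 against 10 to 12). Scrambled control 3 and IFNγR1KO 12 were both the highest of their group for Map3k4, at 79.7 and 63.7 CPM. Both were the lowest for Mrpl36, at 35.2 and 39.8 CPM. For Ppp1r15a scrambled control 3 was the lowest of its group, at 13.4 CPM, and IFNγR1KO 12 the highest, at 130 CPM. Whether anything in the handling of these libraries was shared was not tested. Gadd45b and Gadd45g had only 10 to 88 counts per library, so counting error weighs on both.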
